A study of Mus musculus with 40 samples.

Results

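Ccn1, Ccn2, Ankrd1, Amotl2, Acta2, Tagln and Vim are genes whose transcription is known to follow the mechanical state of a cell, and they were chosen by name: 7 of the 56748 genes in the count table. Of the 7, 6 passed the filter on low counts and were tested, and Ankrd1 did not pass. RNA was sequenced from mouse embryonic stem cells (mES cells) and from epiblast-like cells (EpiLCs), the culture model of the epiblast around implantation, in 40 libraries of 8 groups. Besides wild type (WT), the genotypes were LBRKO, with the gene of the lamin B receptor disrupted, TKO, with Lmna, Lmnb1 and Lmnb2 all deleted and so no lamins, and QKO, in which the disruption of Lbr was added to TKO, with 8 WT libraries and 4 libraries of each mutant at each stage. mES cells were held in 2i and LIF (3 µM CHIR-99021 and 1 µM PD0325901), and EpiLCs were collected after 48 h in 20 ng/mL FGF and 12 ng/mL Activin A, both without serum or feeder cells. All groups grew on dishes coated with Geltrex or Cultrex, 2 basement membrane extracts, and the labels do not say which library grew on which.

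WT and TKO were littermate lines. LBRKO cells derived from the WT line, in which several clones were made, and the labels do not say which clone each library came from. QKO was a single clone of the TKO line with a frameshift in 1 Lbr allele and an in-frame deletion in the other. Each library came from 1 culture well, and replicates of a line differ as wells do. The TKO line carried an extra copy of chromosome 8, and some cells of the WT line extra copies of chromosomes 6 and 8, and part of both lines had lost the Y chromosome. No member lies on any of these chromosomes. QKO cells survive poorly as EpiLCs, and EpiLC survival is also moderately reduced in LBRKO and TKO.

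YAP and TAZ are transcriptional co-activators that the kinases of the Hippo pathway hold in the cytoplasm, and that enter the nucleus and bind TEAD factors when cells spread, pull on their substrate or lose contact with neighbours. Ccn1 and Ccn2 (also called Cyr61 and Ctgf), which encode secreted matricellular proteins, Ankrd1, which encodes a nuclear and sarcomeric ankyrin repeat protein, and Amotl2, which encodes an angiomotin that binds YAP and restrains it, are widely used readouts of YAP activity. Acta2 (smooth muscle α-actin) and Tagln (transgelin, an actin-bundling protein) are targets of serum response factor (SRF), which is driven by the actin-sensing co-activators Mrtfa and Mrtfb. Vim encodes vimentin, the intermediate filament protein that surrounds the nucleus in mesenchymal cells and in many cultured cells. Lamins set much of the stiffness of the nucleus, and the comparisons asked whether these genes move when the lamins, LBR or both are lost.

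The letters of the TEAD motif (GGAATG, on either strand) and of the CArG box bound by SRF were searched in the 250 bases before the start of canonical transcripts on GRCm39. The TEAD letters were found in 12.1% and the CArG box in 1.4% of 21757 promoter windows of the same length. Of the windows of 6 members reported here, 4 are shown because Amotl2 held the TEAD letters 2 times, and Ccn1 and Acta2 once each, while Tagln held a CArG box. Matches are in capitals, and the sequences run 5′ to 3′ along each gene.
Ccn1, chr3:145355739-145355988, minus strand: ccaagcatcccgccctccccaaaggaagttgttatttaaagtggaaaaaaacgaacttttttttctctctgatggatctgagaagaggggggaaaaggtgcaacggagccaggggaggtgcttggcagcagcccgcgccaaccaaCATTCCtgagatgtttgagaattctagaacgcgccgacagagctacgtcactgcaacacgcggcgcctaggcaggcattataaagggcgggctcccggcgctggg
Amotl2, chr9:102594617-102594866, plus strand: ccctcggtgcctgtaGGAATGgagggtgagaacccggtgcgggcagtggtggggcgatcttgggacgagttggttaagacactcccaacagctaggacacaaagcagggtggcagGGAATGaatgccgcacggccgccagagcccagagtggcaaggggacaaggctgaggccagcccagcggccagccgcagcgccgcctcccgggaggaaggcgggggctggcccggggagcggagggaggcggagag
Acta2, chr19:34232991-34233240, minus strand: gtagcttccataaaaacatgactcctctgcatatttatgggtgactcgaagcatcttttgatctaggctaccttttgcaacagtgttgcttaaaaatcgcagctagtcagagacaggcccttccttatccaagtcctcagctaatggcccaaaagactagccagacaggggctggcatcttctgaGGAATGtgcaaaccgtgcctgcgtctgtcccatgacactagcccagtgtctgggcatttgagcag
Tagln, chr9:45847405-45847654, minus strand: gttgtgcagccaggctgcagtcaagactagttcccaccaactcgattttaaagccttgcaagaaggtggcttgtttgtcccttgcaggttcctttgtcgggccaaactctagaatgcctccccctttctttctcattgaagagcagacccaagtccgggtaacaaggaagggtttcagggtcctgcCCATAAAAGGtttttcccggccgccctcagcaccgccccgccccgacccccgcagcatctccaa

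The match in Ccn1 ended 99 bases before the start, and those in Amotl2 229 and 129 bases before it. The match in Acta2 ended 59 bases before the start, and the CArG box of Tagln (CCATAAAAGG) 54 bases before it. In the windows of Ankrd1 and Vim neither set of letters was present. A match shows only that these letters stand in the window.

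On GRCm39 the genes span chr3:145352720-145355738 (Ccn1, minus strand), chr10:24471333-24474900 (Ccn2, plus), chr19:36089352-36097506 (Ankrd1, minus), chr9:102593836-102610617 (Amotl2, plus), chr19:34217737-34232990 (Acta2, minus), chr9:45840909-45847404 (Tagln, minus) and chr2:13578738-13587639 (Vim, plus). Exons of genes on the opposite strand cover 66.7% of the exon bases of Tagln, 36.5% of Ccn2, 24.3% of Ankrd1, 23% of Ccn1, 12.3% of Vim and 9.33% of Acta2, and 0% of Amotl2. These shares are from GENCODE M39, a later release than the M30 used for the counts, so they may differ from those of the counted exons.

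Levels are given as CPM, the gene's counts scaled to the same total in each library (1 M) after TMM normalisation, and levels of different genes are compared only as CPM per kb of exon. In WT mES cells Vim was the most abundant member at 76.5 CPM per kb, followed by Amotl2 at 28.3, Ccn2 at 18.1 and Ccn1 at 13.1. Ccn2 led Ccn1 in WT mES replicates 5 to 8 but not in replicates 1 to 4, where Ccn1 held 11.6 to 12.5 and Ccn2 10.4 to 11.8 CPM per kb. Tagln (0.0739 CPM per kb) and Acta2 (0.0507) were near the limit of detection. In WT EpiLCs Amotl2 led at 41.9 CPM per kb, ahead of Ccn1 (26.8), Ccn2 (22.5) and Vim (18.4), and Acta2 reached 1.02. A gene was called changed at an adjusted p under 0.05 with a fold over 2 (edgeR quasi-likelihood test, Benjamini-Hochberg adjustment over all 23399 genes tested).

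The stage labels held: summed levels of 6 naive markers were 3970 to 4670 CPM in WT mES cells and 106 to 174 CPM in WT EpiLCs. Lmnb1 averaged 515 CPM in WT mES cells against 8.47 in TKO and 13.8 in QKO, while Lbr averaged 372 CPM in WT, 209 in LBRKO and 237 in QKO mES cells. Lbr was disrupted by indels, and why its RNA was lower but still present was not tested. Libraries fell into sets by depth. WT replicates 1 to 4 (25.4 to 33.5 M gene counts) had the depth of TKO and QKO libraries (22.6 to 33.6 M), and WT replicates 5 to 8 (39.4 to 48.9 M) that of LBRKO libraries (39.7 to 48.1 M). The labels name no batch, so LBRKO was also set against WT replicates 5 to 8 alone, and TKO and QKO against WT replicates 1 to 4 alone, and these values are given beside a main value whose call or side of the threshold they change, and beside some others.

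Ccn1 rose during the passage of WT cells from mES cells to EpiLCs. Its level was 16.6 to 43.6 CPM (median 24.5) over the 8 WT mES libraries and 39.2 to 75.4 CPM (median 53.2) over the 8 WT EpiLC libraries, and the highest mES library overlapped the lowest EpiLC libraries. The log2 fold change was 1.03 ± 0.14 (SE, adjusted p = 2.78e-08), and among WT replicates 5 to 8 it was 0.74 ± 0.20 (adjusted p = 0.00194), under 2-fold. It was also just under 2-fold without WT mES replicate 5 (0.98) or 6 (0.96), or without WT EpiLC replicate 1 (0.93) or 2 (0.98), with no filter on low counts (0.97) and with the other groups left out of the fit (0.98).

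Ccn2 did not pass the test in the same comparison over all libraries. It stood at 29.9 to 122 CPM (median 34.4) in WT mES cells and 43.9 to 76.6 CPM (median 63.3) in EpiLCs, and its log2 fold change was 0.31 ± 0.21 (adjusted p = 0.195). The answer differed between the sets: Ccn2 rose by 1.07 ± 0.18 among WT replicates 1 to 4 (adjusted p = 4.34e-06), whereas the value was -0.21 ± 0.26 among replicates 5 to 8 (adjusted p = 0.516). Amotl2 rose by 0.57 ± 0.08 (adjusted p = 3.6e-08), less than 2-fold, from 156 to 250 CPM (median 170) to 217 to 300 CPM (median 269).

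Acta2 and Tagln rose with the passage and Vim fell. Acta2 went from 0 to 0.304 CPM (median 0.0659) in WT mES cells to 1.17 to 3.52 CPM (median 2.09) in WT EpiLCs, with no overlap, and its log2 fold change was 4.26 ± 0.40 (adjusted p = 1.42e-12). The whole rise took the gene from 33 to 608 reads over 8 libraries, so Acta2 remained a rare transcript. Vim fell by 2.05 ± 0.08 on the log2 scale (adjusted p = 2.56e-25), from 292 to 459 CPM (median 346) to 77.2 to 106 CPM (median 86.2). Counted over 2-fold, 4 of the 6 tested members changed in this comparison (Ccn1, Acta2 and Tagln higher, Vim lower), where 31.1% of all tested genes did.

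**Figure D1:**
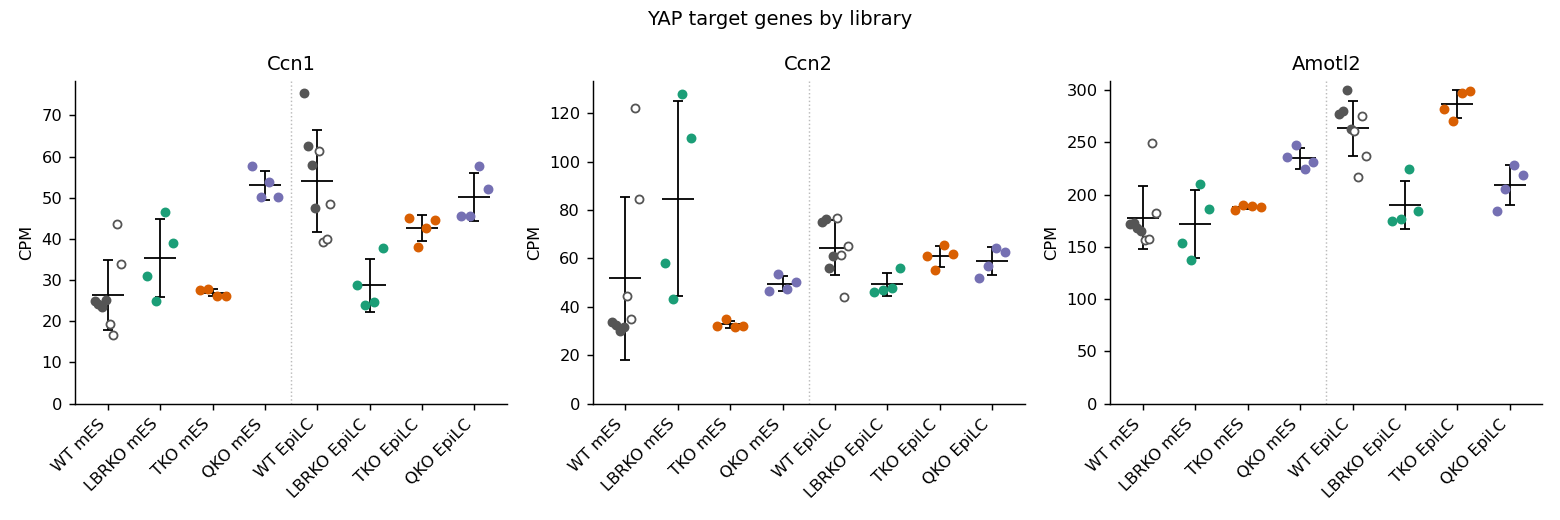
Levels of Ccn1, Ccn2 and Amotl2 in CPM (vertical axes, linear, from 0) in each of the 40 libraries, by genotype and stage. Points are libraries, open points WT replicates 5 to 8, and bars the mean ± SD. QKO mES cells lie above all WT mES libraries for Ccn1 (50.2 to 57.7 CPM against 16.6 to 43.6 CPM), and the high points of Ccn2 are WT mES replicates 7 and 8 and LBRKO mES replicates 3 and 4.

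In mES cells, QKO had the highest Ccn1. The 4 QKO libraries held 57.7, 50.3, 53.8 and 50.2 CPM of Ccn1, and the 4 TKO libraries 27.7, 27.9, 26.2 and 26.2 CPM. All QKO libraries lay above all 8 WT and all 4 TKO libraries. Ccn1 was 1.00 ± 0.17 higher than in WT on the log2 scale (adjusted p = 4.11e-06, 2.01-fold) and was the only member called there, 1 of 6 against 17.2% of all tested genes. Against WT replicates 1 to 4 the difference was 1.12 ± 0.14 (adjusted p = 4.75e-08). Because the fold sat at the threshold, leaving out WT mES replicate 1, 2, 3, 4, 5 or 6 or QKO mES replicate 1 took it just under 2-fold, to between 0.93 and 1.00, with adjusted p from 1.09e-05 to 4.08e-05. It was 0.92 with no filter on low counts and 0.90 against WT replicates 5 to 8.

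The other YAP targets moved less in QKO mES cells. Amotl2 stood at 236, 247, 224 and 231 CPM and was 0.40 ± 0.10 higher than in WT (adjusted p = 0.000665), under 2-fold. Ccn2 stood at 46.5, 53.4, 47.6 and 50.4 CPM. Its difference from all 8 WT libraries was -0.07 ± 0.26 (adjusted p = 0.86), but from WT replicates 1 to 4 it was 0.63 ± 0.18 (adjusted p = 0.00455) and, without WT mES replicates 7 and 8, 0.52 ± 0.17 (adjusted p = 0.0111), the latter a choice made after seeing the data.

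TKO mES cells showed no call, 0 of 6 members against 6.45% of all tested genes, with 1 member at an unadjusted p under 0.05 in edgeR and 0 calls by DESeq2. Log2 fold changes lay between -0.67 for Ccn2 and 0.10 for Vim. For Ccn2 the value was 0.03 ± 0.18 against WT replicates 1 to 4 (adjusted p = 0.937) and -1.13 ± 0.26 against replicates 5 to 8 (adjusted p = 0.0013), where it counted as a call. The comparison of QKO with TKO, which adds the loss of LBR to lamin loss, also gave 0 of 6 calls by edgeR and by DESeq2 against a background of 6.21%, with 4 members at an unadjusted p under 0.05. There Ccn1 was 0.97 ± 0.20 higher (adjusted p = 0.000369, 1.96-fold), Amotl2 was 0.32 ± 0.11 higher (adjusted p = 0.0367), and Vim fell by 0.53 ± 0.11 on the log2 scale (adjusted p = 0.000265). Tagln, with few reads per library, had 1.22 ± 0.57 (adjusted p = 0.128), and without TKO mES replicate 1 it had 2.03 (adjusted p = 0.0271).

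In LBRKO mES cells the YAP targets split by library. Replicates 1 to 4 held 58.3, 43.2, 128 and 110 CPM of Ccn2, 30.9, 24.9, 46.6 and 39.1 CPM of Ccn1, and 154, 138, 210 and 187 CPM of Amotl2, so replicates 3 and 4 were the high ones for all 3 genes. The WT mES libraries had the same kind of spread: replicates 7 and 8 held 122 and 84.7 CPM of Ccn2 against 29.9 to 44.3 CPM in the other 6, and they also led for Ccn1 (43.6 and 33.8 CPM) and Amotl2 (250 and 182 CPM). Over all WT libraries Ccn2 was 0.71 ± 0.25 higher in LBRKO (adjusted p = 0.0332), under 2-fold. Against WT replicates 5 to 8 it was 0.25 ± 0.26 (adjusted p = 0.598). It counted as a call against WT replicates 1 to 4 (1.41 ± 0.18, adjusted p = 1.56e-07) and without WT mES replicate 7 (1.02, adjusted p = 0.000141). Ccn1 (0.42 ± 0.17, adjusted p = 0.0667) and Amotl2 (-0.05 ± 0.10, adjusted p = 0.754) did not pass.

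In EpiLCs the order of Ccn1 was different. LBRKO EpiLCs were lowest, with 28.7, 23.9, 24.6 and 37.9 CPM, all under the lowest WT EpiLC library (39.2 CPM). Ccn1 fell by 0.91 ± 0.18 against WT (adjusted p = 0.000116, 1.87-fold), by 0.71 ± 0.20 against WT replicates 5 to 8 (adjusted p = 0.00809), and by 1.08 ± 0.14 against WT replicates 1 to 4 (adjusted p = 1.57e-07), where it counted as a call. It was also called without LBRKO EpiLC replicate 4, at -1.06 (adjusted p = 5.29e-05). Amotl2 fell by 0.47 ± 0.10 (adjusted p = 0.000266), from a WT median of 269 CPM to 175, 177, 224 and 185 CPM. With edgeR and with DESeq2, 0 of 6 members were called over 2-fold in LBRKO EpiLCs, against 5.67% of all tested genes, and 3 had an unadjusted p under 0.05. TKO EpiLCs (45.1, 38.1, 42.6 and 44.6 CPM) and QKO EpiLCs (45.6, 45.6, 57.7 and 52.2 CPM) overlapped WT EpiLCs in Ccn1, with adjusted p of 0.202 and 0.642 by the edgeR test. Against WT replicates 1 to 4 alone (47.6 to 75.4 CPM) all 4 TKO libraries were lower, by 0.52 ± 0.14 on the log2 scale (adjusted p = 0.00999, under 2-fold), and QKO was at -0.27 ± 0.14 (adjusted p = 0.0929). Ccn2 did not pass in any mutant EpiLC comparison (log2 values -0.39, -0.08 and -0.13 for LBRKO, TKO and QKO). Amotl2 was 0.33 ± 0.10 lower in QKO EpiLCs than in WT (adjusted p = 0.00397).

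The change of Ccn1 between the stages differed by genotype. The stage interaction, the passage in a mutant minus the passage in WT, was -1.33 ± 0.24 for LBRKO (adjusted p = 8.25e-05) and -1.11 ± 0.24 for QKO (adjusted p = 0.000392). With WT replicates 5 to 8 the QKO value was -0.81 ± 0.28 (adjusted p = 0.0279), under 2-fold. The passage itself was 1.03 in WT, 0.66 ± 0.20 in TKO (adjusted p = 0.00524), -0.30 ± 0.20 in LBRKO (adjusted p = 0.216) and -0.08 ± 0.20 in QKO (adjusted p = 0.775). In LBRKO the mES level was near WT and the EpiLC level low, whereas in QKO the EpiLC level was near WT and the mES level high. Ccn1 and Ccn2 were the 2 members called in the LBRKO interaction, against 6% of all tested genes, but the value of Ccn2 (-1.10 ± 0.36, adjusted p = 0.0322) was -0.57 ± 0.36 with WT replicates 5 to 8 (adjusted p = 0.362) and -0.82 without LBRKO mES replicate 3 (adjusted p = 0.151). The call on Ccn2 was also lost without LBRKO mES replicate 4 or LBRKO EpiLC replicate 1, 2 or 3, with adjusted p from 0.0504 to 0.0993. Amotl2 had an interaction of -0.73 ± 0.14 in QKO (adjusted p = 4.21e-05). The TKO interaction gave 0 of 6 calls with edgeR and with DESeq2, against a background of 3.03%, and 0 members at an unadjusted p under 0.05. With WT replicates 1 to 4 alone Ccn1 was at -0.66 ± 0.20 there (adjusted p = 0.0307), and with replicates 5 to 8 Ccn2 was called at 1.11 ± 0.37 (adjusted p = 0.0458).

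Ankrd1 was barely transcribed. Its reads summed to 8 in WT, 18 in LBRKO, 7 in TKO and 1 in QKO mES cells, and to 9, 11, 1 and 2 in the corresponding EpiLCs. The largest count in a library was 9, in LBRKO mES replicate 4, and no comparison was made.

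The partners of YAP changed more with stage than YAP did. Yap1, the co-activator itself, averaged 198 CPM in WT mES cells and 257 CPM in WT EpiLCs, and its difference from WT was -0.14 in LBRKO mES cells, 0.17 in QKO mES cells and -0.05 in QKO EpiLCs on the log2 scale. Wwtr1, which encodes TAZ, averaged 93.2 CPM in WT mES cells and 59.6 CPM in WT EpiLCs, and fell to 36.3 CPM in QKO EpiLCs (log2 fold change -0.71, adjusted p = 2.65e-13 by edgeR). Among the TEAD factors that YAP binds, Tead4 fell from 63.9 to 3.67 CPM and Tead1 from 212 to 65.6 CPM during the WT passage, while Tead3 rose from 8.45 to 21.5 CPM. In QKO EpiLCs Tead2 fell from the WT mean of 329 to 154 CPM (log2 fold change -1.09), and Tead1 was 0.97 higher on the log2 scale.

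A list of 25 Hippo pathway genes was tested whole. In WT 7 rose and 3 fell from mES cells to EpiLCs, where 18.2% of all tested genes rose and 12.9% fell. In the mutants the shares of all tested genes higher and lower than WT were 3.06% and 3.25% in LBRKO, 2.68% and 3.77% in TKO and 10.6% and 6.66% in QKO mES cells, and 3.04% and 2.63% in LBRKO, 1.44% and 1.48% in TKO and 13% and 8.16% in QKO EpiLCs. Of the 25, 1 was higher and 1 lower in LBRKO and in QKO mES cells, 0 and 2 in TKO mES cells, 1 and 2 in LBRKO EpiLCs, 0 and 0 in TKO EpiLCs, and 0 and 3 in QKO EpiLCs. With WT replicates 5 to 8 LBRKO mES cells had 0 higher and 1 lower, and with replicates 1 to 4 TKO mES cells had 1 and 1. Medians over the list were between -0.15 and 0.11 in the mutant comparisons, and those over all genes between -0.04 and 0.02. Amot, the angiomotin that retains YAP at junctions, was the gene of the list that fell most in LBRKO, TKO and QKO mES cells and in LBRKO EpiLCs. Its mean was 3.94 CPM in WT, 0.597 in LBRKO and 0.330 in QKO mES cells, and 26.4 CPM in WT, 5.26 in LBRKO and 9.03 in QKO EpiLCs. Lats2, a kinase that phosphorylates YAP and is listed as a YAP target too, was 1.32 higher in LBRKO and 1.92 higher in QKO mES cells on the log2 scale, from a WT mean of 1.30 CPM. Against WT replicates 5 to 8 alone, Lats2 was not called higher in LBRKO mES cells. Dchs1, an atypical cadherin upstream of the pathway, fell from 7.91 to 2.15 CPM in QKO EpiLCs.

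YAP targets outside the 7 did not move as 1 group. Of 18 listed, 15 were tested: 6 rose and 3 fell during the WT passage, where 18.2% of all tested genes rose and 12.9% fell. In mES cells 1 rose and 0 fell in LBRKO (3.06% and 3.25% of all tested genes), 0 and 3 in TKO (2.68% and 3.77%), and 1 and 3 in QKO (10.6% and 6.66%). In QKO mES cells, where Ccn1 was high, Nuak2 (-2.52), Igfbp3 (-2.02) and Crim1 (-1.21) fell and Lats2 (1.92) rose on the log2 scale. There the list's median was -0.37, against 0.01 for all genes, and it was -0.17 with WT replicates 1 to 4 alone. In EpiLCs 1 rose and 1 fell in LBRKO (3.04% and 2.63% of all tested genes), 0 and 1 in TKO (1.44% and 1.48%), and 1 and 2 in QKO (13% and 8.16%). Nt5e, an ecto-nucleotidase, fell by 1.32 in LBRKO, 1.10 in TKO and 3.25 in QKO EpiLCs on the log2 scale, and Myof, a membrane repair protein, rose by 1.88 in LBRKO and 1.33 in QKO EpiLCs. The count depended on the WT set in LBRKO mES cells, where 6 rose and 0 fell against WT replicates 1 to 4, and 0 rose and 0 fell against replicates 5 to 8. Against WT replicates 1 to 4, 1 rose and 1 fell in TKO and 2 rose and 2 fell in QKO mES cells. Of 17 focal adhesion genes tested, at most 3 were called in a comparison of a mutant with WT, in QKO mES cells (Itgb5 and Tns1 higher, Itga5 lower), where 17.2% of all tested genes were called.

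**Figure D2:**
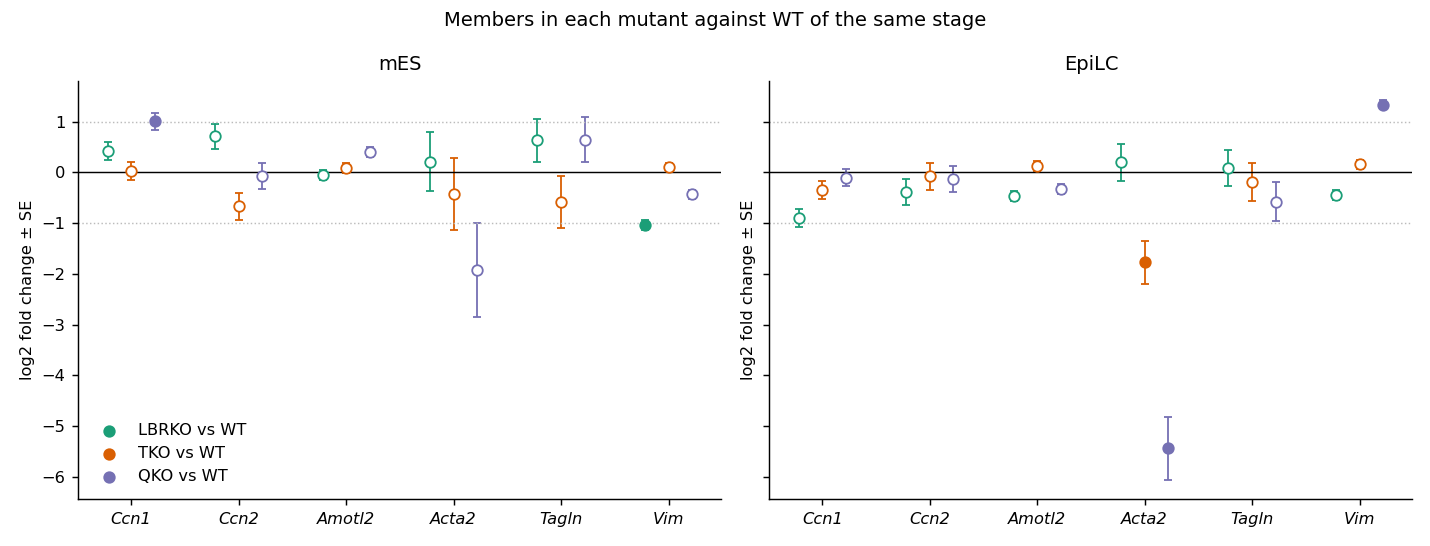
Log2 fold changes with SE (vertical axis) of the 6 tested members in LBRKO, TKO and QKO cells against WT of the same stage, for mES cells (left) and EpiLCs (right). Filled points were called (adjusted p under 0.05 and over 2-fold), and dotted lines mark 2-fold. Acta2 in QKO EpiLCs is lowest at -5.43, and Vim is lowest in LBRKO mES cells (-1.04) and highest in QKO EpiLCs (1.33).

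Acta2 showed the largest difference of any member between a mutant and WT of the same stage, and it was in EpiLCs without lamins. WT EpiLCs held 1.17 to 3.52 CPM (median 2.09), LBRKO EpiLCs 1.95, 2.07, 2.61 and 3.51 CPM, TKO EpiLCs 0.574, 0.639, 0.727 and 0.636 CPM, and QKO EpiLCs 0.0720, 0, 0.0327 and 0.0841 CPM. Each TKO library lay below each WT library, each QKO library lay below each TKO library, and LBRKO overlapped WT. Acta2 was the only member called in TKO EpiLCs, 1 of 6 against 2.91% of all tested genes, at -1.77 ± 0.43 (adjusted p = 0.00277). In QKO EpiLCs it was -5.43 ± 0.62 (adjusted p = 9.94e-10), and Acta2 and Vim were the 2 members called, against 21.2%.

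As reads, the Acta2 sums were 608 in 8 WT, 71 in 4 TKO and 6 in 4 QKO EpiLC libraries. Scaled to library size, WT EpiLCs exceeded QKO EpiLCs 42.8-fold (exact 95% interval 19.6 to 117, counting error only) and TKO EpiLCs exceeded QKO EpiLCs 13.5-fold (5.90 to 38.0). The fitted difference between QKO and TKO EpiLCs was -3.66 ± 0.71 (adjusted p = 5.24e-05), where Acta2 and Vim were again the 2 members called, against 15.3% of all tested genes. In bulk RNA, fewer cells that transcribe a gene and less RNA per cell cannot be told apart.

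The depth sets mattered for Acta2. Among WT EpiLCs, replicates 1 to 4 held 2.67 to 3.52 CPM and replicates 5 to 8 held 1.17 to 1.51 CPM, without overlap. Against the set of their own depth, TKO EpiLCs differed by -2.27 ± 0.37 (adjusted p = 3.4e-05), QKO EpiLCs by -5.92 ± 0.52 (adjusted p = 1.15e-11) and LBRKO EpiLCs by 0.92 ± 0.41 (adjusted p = 0.107). Against WT replicates 5 to 8, the TKO value was -1.05 ± 0.45 (adjusted p = 0.089). The lamin by LBR interaction, the change in QKO minus the sum of the changes in TKO and LBRKO, was -3.86 ± 0.80 for Acta2 in EpiLCs (adjusted p = 0.000307). The rise of Acta2 with the passage was 4.25 ± 0.54 in LBRKO and 2.91 ± 0.65 in TKO, and in QKO it was 0.75 ± 1.19 (adjusted p = 0.624). The QKO stage interaction of Acta2 was -3.51 ± 1.63 (adjusted p = 0.106 by edgeR), and it was called at -3.45 with DESeq2 (adjusted p = 0.0137) and at -4.21 ± 1.45 with WT replicates 1 to 4 (adjusted p = 0.0255).

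The neighbour Stambpl1, a deubiquitinase gene on the opposite strand whose exons cover 9.33% of the exon bases of Acta2, moved in the same direction in these mutants. It averaged 2.49 ± 0.44 CPM (SD, n = 8) in WT, 2.74 ± 0.38 in LBRKO, 1.21 ± 0.50 in TKO and 0.884 ± 0.34 in QKO EpiLCs (n = 4 each), and 4.77 ± 0.72 CPM in WT mES cells, where Acta2 was lower than in EpiLCs. Whether the counting used strand was not stated, and the part of shared reads in the Acta2 values was not tested. In mES cells Acta2 summed to 33 reads in WT, 23 in LBRKO, 10 in TKO and 3 in QKO. WT exceeded QKO 4.18-fold by these reads (exact 95% interval 1.31 to 21.3), and the test over libraries did not pass (log2 fold change -1.93 ± 0.92, adjusted p = 0.0864).

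Tagln is reported from both deposited tables because they differed. Exons of Pcsk7 and Gm48529, both on the opposite strand, cover 66.7% of its exon bases. In the table of reads with a single alignment, WT mES cells held 0.0935 to 0.313 CPM (median 0.125) and WT EpiLCs 0.353 to 0.898 CPM (median 0.488), a log2 rise of 1.82 ± 0.33 (adjusted p = 7.19e-06). That table held 157 Tagln reads over the 8 WT EpiLC libraries. The table that allowed up to 100 alignments per read held 1971, so that the first had 7.97% of the second, against 90.6% or more for Ccn1, Ccn2, Amotl2 and Vim in all groups. In the second table the rise was 3.30 ± 0.16 (adjusted p = 1.35e-21), from 0.520 to 0.767 CPM (median 0.662) to 4.45 to 8.38 CPM (median 6.16).

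The mutant comparisons of Tagln depended on the table, as did its QKO stage interaction (-1.22 ± 0.59, adjusted p = 0.121, against -2.67 ± 0.27, adjusted p = 1.59e-10). In the single-alignment table no mutant differed from WT by the test at either stage, and QKO EpiLCs (0.576, 0.384, 0.327 and 0.168 CPM) were -0.58 ± 0.39 from WT (adjusted p = 0.206). In the other table QKO EpiLCs held 2.08, 1.55, 1.68 and 1.73 CPM, below all other EpiLC libraries, and Tagln fell by 1.86 ± 0.19 against WT (adjusted p = 4.33e-11) and by 1.29 ± 0.20 against TKO (adjusted p = 1.9e-06). LBRKO EpiLCs (3.82, 3.47, 3.99 and 5.49 CPM) and TKO EpiLCs (5.01, 3.54, 4.55 and 4.17 CPM) fell by 0.61 and by 0.57 against WT (adjusted p = 0.00529 and 0.017), under 2-fold. Both overlapped WT replicates 5 to 8 (4.45 to 5.53 CPM). Both lay below all of WT replicates 1 to 4 (6.79 to 8.38 CPM), the set with the depth of TKO. QKO mES cells (1.27, 1.07, 1.28 and 0.928 CPM) stood 0.81 ± 0.20 above WT (adjusted p = 0.000856). Pcsk7 itself was 9.84 CPM in WT and 11.2 CPM in QKO EpiLCs. Which reads the tables treat differently was not tested.

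**Figure D3:**
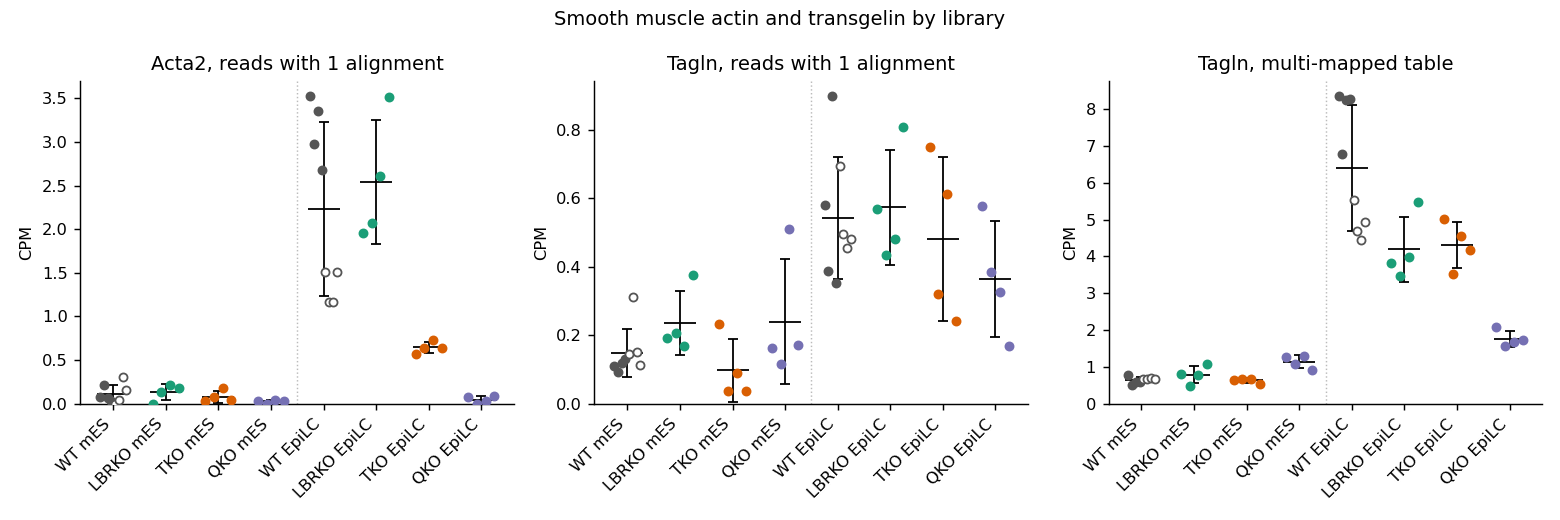
Levels in CPM (vertical axes, linear, from 0) of Acta2 (left) and of Tagln in the table of reads with a single alignment (middle) and in the table with multi-mapped reads (right), in all 40 libraries. Points are libraries, open points WT replicates 5 to 8, and bars the mean ± SD. Acta2 in QKO EpiLCs reaches 0.0841 CPM at most. The QKO mean of Tagln is the lowest of the EpiLC groups in both panels. Only in the right panel do all QKO EpiLC libraries lie below all other EpiLC libraries.

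Other genes of the SRF and actin system were examined with Acta2 and Tagln. Of 30 listed, 29 were tested, and 15 rose and 3 fell during the WT passage to EpiLCs, where 18.2% of all tested genes rose and 12.9% fell. The median log2 fold change of the list was 1.14 against 0.07 over all genes. Myl9, a myosin regulatory light chain (0.138 to 23.7 CPM), Cnn1, the smooth muscle calponin (0.109 to 11.9 CPM), and Zyx, the focal adhesion protein zyxin (8.63 to 117 CPM), were among those that rose, as was Srf itself (43.9 to 123 CPM). Lima1, an actin-binding LIM protein, fell by 2.94 on the log2 scale.

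In QKO EpiLCs 8 of the 29 fell and 0 rose, with a median of -0.36 against -0.01 over all genes, against 8.16% and 13% of all tested genes. The 8 were Actc1, Myl9, Cnn1, Cnn2, Tpm2, Zyx, Flna and Acta1. Myl9 stood at 4.41 CPM in QKO against 23.7 in WT EpiLCs, Cnn1 at 2.30 against 11.9, Cnn2 at 34.1 against 107, Tpm2, a tropomyosin, at 6.97 against 18.7, Zyx at 46.6 against 117, and Flna, the actin crosslinker filamin A, at 749 against 1590 CPM. All 8 had risen in the WT passage, and they are named here after their values were seen. The passage and the QKO comparison share the WT EpiLC libraries with opposite sign. A gene that measured high in those libraries tends to show both, so the rise and the fall are not independent. Against WT replicates 1 to 4 alone, 9 fell and 1 rose. The list still rose with the passage within QKO: 11 of the 29 were higher and 2 lower in QKO EpiLCs than in QKO mES cells. The median of that passage was 0.66, against 0.05 over all genes. In the QKO stage interaction 4 were higher and 4 lower, where 12.6% of all tested genes were called. The median there was -0.34, against -0.03 over all genes. Srf averaged 63.6 CPM in QKO EpiLCs against 123 in WT (log2 fold change -0.95, adjusted p = 2.17e-12 by edgeR), just under 2-fold, while Mrtfa fell by 0.39 and Mrtfb was 0.45 higher. The cytoplasmic actins moved little, Actb by -0.20 and Actg1 by 0.08.

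In LBRKO mES cells 2 genes of this list were higher (Zyx and Mylk) and 0 lower, against 3.06% and 3.25% of all tested genes. In TKO mES cells 0 were higher and 2 lower (Mylk and Cald1), against 2.68% and 3.77%. The QKO mES counts were 1 and 4, against 10.6% and 6.66%. In EpiLCs 0 were higher and 1 lower (Actc1) in LBRKO, against 3.04% and 2.63%, and 0 and 0 in TKO (1.44% and 1.48%). These counts leave out changes under 2-fold. The list's median in TKO EpiLCs was -0.18, against -0.04 over all genes, and it was -0.26 against WT replicates 1 to 4. In LBRKO EpiLCs the median was -0.06. Against WT replicates 1 to 4, QKO mES cells had 1 higher and 7 lower and TKO EpiLCs 0 and 1. In TKO EpiLCs Srf stood at 122.6 CPM against 122.9 in WT.

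Markers of muscle and fibroblasts were read beside these values. The 10 muscle markers summed to 61.4 to 74.8 CPM in WT, 53.4 to 60.2 in TKO and 38.0 to 41.9 CPM in QKO EpiLCs, and Smtn gave 35.6 CPM of the sum in WT and 25.4 in QKO. Cnn1, Des, Actg2 and Lmod1 are on the SRF list too. Of the defining genes of smooth muscle, Myh11 averaged 0.552 CPM and Myocd 0.334 CPM in WT EpiLCs. The 10 fibroblast markers summed to 20.1 to 26.3 CPM in WT and 9.99 to 10.7 CPM in QKO EpiLCs, of which Dcn gave 10.2 and 2.72 CPM, Postn was at 0 in WT, and Col1a1 stood at 2.94 and 1.70 CPM. Their part in the fall of Acta2 and of the SRF list was not tested.

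**Figure D4:**
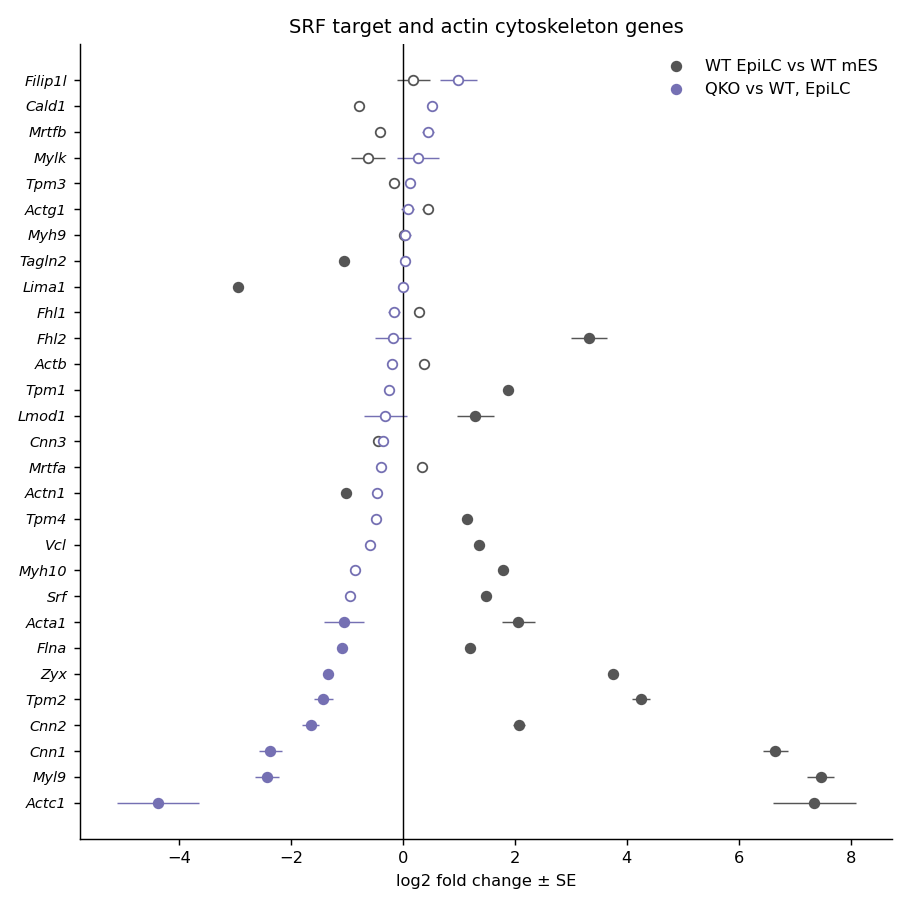
Log2 fold changes with SE (horizontal axis) of the 29 tested genes of the SRF and actin list, for WT EpiLCs against WT mES cells (grey) and QKO against WT EpiLCs (violet). Filled points were called. All 8 genes called in QKO EpiLCs lie left of 0 and were called on the right in the WT passage. Both comparisons use the same WT EpiLC libraries, so they are not independent.

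Vim was lower in LBRKO cells at both stages and higher in QKO EpiLCs. In mES cells, WT libraries held 292 to 459 CPM (median 346), LBRKO 175.6, 165.9, 175.5 and 190.9 CPM, TKO 387, 397, 385 and 381 CPM, and QKO 277, 273, 254 and 270 CPM. LBRKO and QKO lay below every WT library, and TKO lay within the WT range. Vim fell by 1.04 ± 0.10 in LBRKO (adjusted p = 3.47e-11), the only call there, 1 of 6 against 6.31% of all tested genes, and by 0.43 ± 0.09 in QKO (adjusted p = 0.000213). The WT level differed between the depth sets: replicates 1 to 4 held 292 to 311 CPM and replicates 5 to 8 held 381 to 459 CPM. Against their own sets Vim fell by 1.27 ± 0.07 in LBRKO (adjusted p = 2.01e-15) and by 0.15 ± 0.06 in QKO (adjusted p = 0.0239), and rose by 0.37 ± 0.06 in TKO (adjusted p = 3.64e-06). The LBRKO call was lost against WT replicates 1 to 4 (-0.76 ± 0.06, adjusted p = 8.54e-13) and without WT mES replicate 5 or 8 (-0.98 in both), each under 2-fold.

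In EpiLCs, Vim stood at 77.2 to 106 CPM (median 86.2) in WT, 63.6, 65.3, 57.2 and 70.6 CPM in LBRKO, 96.8, 98.0, 98.8 and 96.0 CPM in TKO, and 202, 219, 235 and 225 CPM in QKO. Every QKO library exceeded every other EpiLC library and lay below every QKO mES library. Vim was 1.33 ± 0.09 higher in QKO than in WT (adjusted p = 4.11e-16), 1.18 ± 0.11 higher than in TKO (adjusted p = 1.12e-11), and 1.42 ± 0.06 higher than in WT replicates 1 to 4 (adjusted p = 3.37e-20). TKO was 0.16 ± 0.09 above WT (adjusted p = 0.289) and 0.25 ± 0.06 above replicates 1 to 4 (adjusted p = 0.00275). In LBRKO EpiLCs it fell by 0.44 ± 0.10 (adjusted p = 0.000377), under 2-fold.

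The fall of Vim with the passage was -2.05 in WT, -1.99 ± 0.11 in TKO, -1.46 ± 0.11 in LBRKO and -0.29 ± 0.11 in QKO on the log2 scale. The QKO interaction was 1.77 ± 0.13 (adjusted p = 3.35e-14), and Ccn1 and Vim were the 2 members called in it, against 12.6% of all tested genes. The lamin by LBR interaction in EpiLCs was 1.62 ± 0.15 for Vim (adjusted p = 2.85e-11) and 1.15 ± 0.27 for Ccn1 (adjusted p = 0.00105), so that with Acta2 3 of 6 members were called, against 8.05%. With WT replicates 5 to 8 Ccn1 was at 0.95 ± 0.28 (adjusted p = 0.0121), under 2-fold, which left 2. In mES cells 0 of the 6 were called in that interaction by edgeR and by DESeq2, against 7.5%, and 3 had an unadjusted p under 0.05. Vim was at 0.50 ± 0.14 there (adjusted p = 0.00873), under 2-fold.

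**Figure D5:**
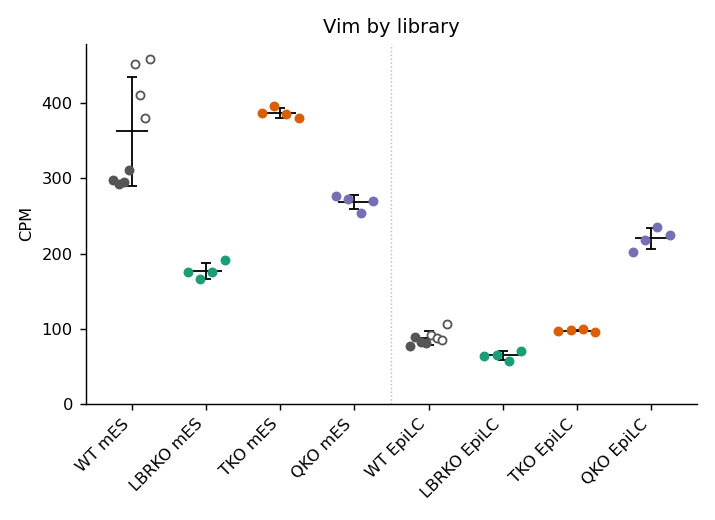
Level of Vim in CPM (vertical axis, linear, from 0) in all 40 libraries by genotype and stage. Points are libraries, open points WT replicates 5 to 8, and bars the mean ± SD. QKO EpiLCs (202 to 235 CPM) lie between the other EpiLCs and the mES groups of WT, TKO and QKO.

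Stage and lineage markers gave these values beside Vim. The 6 naive markers summed to 146 to 173 CPM in QKO EpiLCs, inside the WT EpiLC range, and to 198 to 297 CPM in LBRKO EpiLCs, above it. Within the sum 3 of the 6 were higher in QKO than in WT EpiLCs (Esrrb 45.1 against 16.0 CPM, Zfp42 54.1 against 22.6 and Tbx3 3.69 against 1.74) and Nanog was lower (29.2 against 77.4 CPM), with a median of 0.70 against -0.01 over all genes. The 6 EpiLC markers summed to 2900 to 3040 CPM in QKO against 3920 to 4730 CPM in WT EpiLCs. The 7 mesoderm markers summed to 25.8 to 27.5 CPM in QKO and 11.7 to 15.0 CPM in WT EpiLCs, most of it Eomes (21.4 and 7.93 CPM). In mES cells they summed to 27.6 to 30.7 CPM in LBRKO and 11.6 to 17.9 CPM in WT. The 9 primitive endoderm markers summed to 184 to 281 CPM in LBRKO, 134 to 189 CPM in WT and 76.5 to 82.4 CPM in QKO mES cells, most of it Lama1. The part of these markers in the Vim values was not tested.

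Of 16 intermediate filament and epithelial to mesenchymal transition genes, 1 was higher and 2 lower in LBRKO mES cells (3.06% and 3.25% of all tested genes). In TKO mES cells 0 and 2 were (2.68% and 3.77%), and in QKO mES cells 1 and 5 (10.6% and 6.66%). The EpiLC counts were 1 and 1 in LBRKO (3.04% and 2.63%), 0 and 0 in TKO (1.44% and 1.48%), and 2 and 3 in QKO (13% and 8.16%). Against the WT set of their own depth the counts were 2 and 3 in LBRKO, 1 and 2 in TKO and 2 and 4 in QKO mES cells, and 2 and 2 in QKO EpiLCs. In LBRKO mES cells Nes, the filament protein nestin, fell with Vim (14.7 against 38.5 CPM) while Krt8, a simple epithelial keratin, rose (65.7 against 30.6 CPM). In QKO EpiLCs, where Vim rose, Krt19 (6.91 against 2.34 CPM) and Zeb1 (10.2 against 4.07 CPM), a repressor of epithelial genes, were higher, and Krt18 (7.33 against 23.3 CPM), Cdh2, encoding N-cadherin (7.69 against 16.4 CPM), and Fn1, encoding fibronectin (185 against 385 CPM), fell.

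Over the 8 groups, the ranges of libraries separated some neighbours in the order of means and not others. For Vim the order from the lowest was LBRKO, WT and TKO EpiLCs, LBRKO mES cells, QKO EpiLCs, and QKO, WT and TKO mES cells, and only WT and TKO of each stage overlapped as neighbours. For Acta2 the 5 lowest groups (QKO mES cells, QKO EpiLCs, and TKO, WT and LBRKO mES cells) each overlapped the next, and TKO EpiLCs stood apart from both sides. For Ccn1 a single step separated neighbours, from TKO EpiLCs to QKO EpiLCs, and for Ccn2 the step from TKO mES cells to LBRKO EpiLCs. For Amotl2 and Tagln every group overlapped the next.

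The genes whose pattern over the 40 libraries was most like each member were found by Pearson r of log2(CPM + 0.5) among named genes whose mean reached 5 CPM in a group. The libraries share stage, genotype and depth set, so r is a description. For Ccn1 they were Gsto1 (r = 0.852), Amotl2 (0.769) and Celf2 (0.727), the only case with a member in the list. For Ccn2 they were Prmt6 (0.751), Ube2d3 (0.722) and Zc3h12c (0.703), and for Amotl2 Prtg (0.846), Fmnl2 (0.83) and Mtx3 (0.817). For Acta2 they included Oasl2 (0.91) and Snapc3 (0.907), and they were for Tagln Ptprn (0.821), Bicdl2 (0.815) and Adat1 (0.815), and for Vim Rpl10l (0.977), Ifitm3 (0.975) and Gtsf1l (0.963). Among the members themselves, Ccn1 and Ccn2 had r = 0.631, Acta2 and Tagln 0.701, and Acta2 and Vim -0.869.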

How the data were processed

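Total RNA of the 40 libraries was prepared with a stranded kit after removal of ribosomal RNA. The authors trimmed reads with cutadapt 2.5, aligned them with STAR 2.7.10a to GRCm39 with GENCODE M30, and deposited whole-number counts per gene for reads with a single alignment (featureCounts 1.6.4). A second deposited table held counts of reads with up to 100 alignments (TEcount 2.2.3). Whether strand was used in counting is not given in the sources used here. Of 56748 gene identifiers, 56017 matched GENCODE M39, which gave names, spans, promoter windows and the shares of exon overlap. Exon lengths differ between the releases: Acta2 has 3227 exon bases in M39 and 2196 in the deposited counts.

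CPM and all tests were computed here from the deposited counts, and CPM per kb uses the exon lengths of the deposited table. A single model with 8 groups was fitted to all 40 libraries with edgeR 4.0.16 (R 4.3.3, TMM, filterByExpr, quasi-likelihood test), which tested 23399 genes, and adjusted p-values are over all of them. A call needed an adjusted p under 0.05 and a fold over 2. DESeq2 1.42.0 was an alternative. The step was tested on simulated data. Libraries held 22.6 to 48.9 M gene counts. Exact intervals are at 95% and cover counting error only, and p-values measure the spread between wells.

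The members and gene lists were chosen with earlier results of these data known. Named genes were the members, the targeted genes, up to 3 genes called with the largest and the smallest log2 fold change of a list in each comparison, the YAP, TEAD, SRF and actin genes given above, and the 3 genes most like each member. A promoter window and a gene most like a member are not reported here. Stambpl1, Pcsk7 and single marker genes were added after values were seen.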

Additional observations from a re-analysis of the deposited data

Results flagged for a closer look

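In 8 of the 56 member and group combinations examined, the highest library was flagged by its gap to the next, relative to the range of the group. For normally distributed values the rule flags about 1 in 20. The 8 were Amotl2 in WT mES cells (249.7 CPM, replicate 7), Ccn2 in LBRKO EpiLCs (56.01 CPM) and in TKO mES cells (34.88 CPM), Tagln in WT mES cells (0.3129 CPM) and QKO mES cells (0.5106 CPM), and Ankrd1 in QKO EpiLCs (0.07199 CPM, 2 reads), QKO mES cells (0.03249 CPM, 1 read) and TKO EpiLCs (0.03824 CPM, 1 read). In these Ankrd1 groups a single library held reads, and the rule flags every such group.

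Effects differed between stages or between backgrounds for 4 members, by interaction terms in edgeR. The change with stage differed from WT for Ccn1 in LBRKO (-1.33) and QKO (-1.11), for Ccn2 in LBRKO (-1.10) and for Vim in QKO (1.77). The Ccn2 call was not stable: with WT replicates 5 to 8 its value was -0.57 (adjusted p = 0.362 by edgeR). With the same WT replicates the Ccn1 value in QKO was -0.81, under 2-fold. In EpiLCs the effect of losing lamins and LBR together differed from the sum of the single effects for Ccn1 (1.15), Acta2 (-3.86) and Vim (1.62).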

How the results depend on the processing

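Under the alternatives, values of members that were called kept their direction in 446 of 446 cases and stayed past the threshold in 413. Most of these values came from fits that left out 1 of the 40 libraries, so they share most of their data and are not independent. Counts of members called moved as follows. With WT replicates 5 to 8 alone, TKO mES cells had 1 call (Ccn2, -1.13), QKO mES cells 0, TKO EpiLCs 0, the LBRKO, TKO and QKO stage interactions 1 each, the lamin by LBR interaction in EpiLCs 2 and the WT passage 3. With WT replicates 1 to 4 alone, LBRKO EpiLCs had 1 call (Ccn1, -1.08), the WT passage 5 and the QKO stage interaction 3, and the call in LBRKO mES cells was Ccn2 (1.41) in place of Vim (-0.76). With no filter on low counts, QKO mES cells had 0 calls and the QKO stage interaction 1, and with only the groups compared the LBRKO stage interaction had 1. Leaving out 1 library gave 0 to 2 calls in LBRKO mES cells, 0 to 1 in QKO mES cells, in QKO against TKO mES cells and in LBRKO EpiLCs, and 1 to 2 in the LBRKO stage interaction. The cause was not tested.

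Directions that turned were mostly those of Ccn2. It was -0.21 for the WT passage with WT replicates 5 to 8, 0.03 in TKO mES cells with replicates 1 to 4, and in QKO mES cells 0.63 with replicates 1 to 4, 0.02 with multi-mapped reads and 0.52 without WT mES replicates 7 and 8, an alternative chosen after seeing the data. Its TKO stage interaction was -0.17 with replicates 1 to 4 and 0.0 without replicates 7 and 8, its QKO stage interaction 0.07 with no filter and 0.46 with replicates 5 to 8, and its lamin by LBR interaction in mES cells 0.35 with replicates 5 to 8. Leaving out 1 library gave -0.15 to 0.24 for Ccn2 in QKO mES cells, -0.37 to 0.02 in the QKO stage interaction and -0.42 to 0.17 in the lamin by LBR interaction in mES cells. Vim in TKO mES cells was -0.14 with replicates 5 to 8. Tagln in LBRKO EpiLCs was -0.61 with multi-mapped reads, and leaving out 1 library gave -0.12 to 0.22 there and -0.48 to 0.05 in TKO EpiLCs.

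Replicate numbers were shared by the groups but did not pair the libraries: same-numbered WT libraries of the 2 stages had correlations of deviations from 0.0553 to 0.552, and in QKO and TKO EpiLCs alone all 4 correlated best with their own number, a hint from the data. With the replicate number as a block, the call in LBRKO mES cells was Ccn2 (1.07) and not Vim (-0.84), that in QKO mES cells was Acta2 (-2.33 ± 0.91, adjusted p = 0.0339) and not Ccn1 (0.98), and Ccn2 was 0.32 in QKO mES cells. Depth limits Ankrd1, Acta2 and Tagln in mES cells, where counts per library were low.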
